A study of Mus musculus with 11 samples.

Results

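The COPII coat genes comprised Sar1a, Sar1b, Sec23a, Sec23b, Sec24a, Sec24b, Sec24c, Sec24d, Sec13 and Sec31a, which were taken by gene symbol from the expression tables of mouse cochlea. All 10 genes were found among the 18667 genes of the tables, and all 10 were among the 16169 genes whose mean over the libraries reached 0.1 FPKM, a unit that counts sequenced fragments relative to gene length and library size. RNA was measured in 5 Atf6+/+ and 6 Atf6-/- libraries, each made from 1 whole cochlea of a mouse aged 2 months. The Atf6-/- mice carry a premature stop codon in Atf6 in every cell and, per the study, make no ATF6 protein. Their littermates with intact alleles served as controls, and both genotypes share the C57BL/6J background with its defective Cdh23ahl allele. The comparison addressed which genes differ in the cochlea when ATF6, a transcription factor of the unfolded protein response, is absent.

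COPII is the coat that forms transport vesicles on the endoplasmic reticulum (ER). The GTPase SAR1 is loaded with GTP by the ER protein SEC12, which is encoded by Preb, and then inserts into the membrane. SAR1 recruits the inner coat of SEC23, which activates the hydrolysis of GTP by SAR1, and SEC24, which binds cargo proteins. The outer cage of SEC13 and SEC31 then bends the membrane into a bud. Mammals carry paralogues of most subunits, and the paralogues of SEC24 differ in the cargo they bind. Loss of SEC23B causes a congenital dyserythropoietic anaemia in people, loss of SEC23A a craniofacial bone disorder, and loss of SAR1B a failure to export chylomicrons from the gut. In mice Sec24b is required for the delivery of Vangl2, a planar polarity protein, and planar polarity orients the hair bundles of the cochlea.

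The promoters are shown for the members with the largest log2 fold changes between the genotypes, Sec23b, Sec24c and Sec24d, and for Sec23a, the paralogue of Sec23b. Promoters were available from RefSeq for all 10 genes (12 promoters, since Sec23b and Sec31a have 2 start sites each), on the build GRCm38.p6, and run from 250 bases before to 50 bases after the start site. That build differs from the GRCm39 build of the expression tables, and no coordinates were carried between them. Capitals mark CCACG, the part of the ER stress response element to which ATF6 binds, and TGACGT, the core of the cyclic AMP response element, on either strand. Where both run together as TGACGTGG, the letters form a binding sequence of ATF6.
Sec23a, chr12:59011968-59012267, minus strand: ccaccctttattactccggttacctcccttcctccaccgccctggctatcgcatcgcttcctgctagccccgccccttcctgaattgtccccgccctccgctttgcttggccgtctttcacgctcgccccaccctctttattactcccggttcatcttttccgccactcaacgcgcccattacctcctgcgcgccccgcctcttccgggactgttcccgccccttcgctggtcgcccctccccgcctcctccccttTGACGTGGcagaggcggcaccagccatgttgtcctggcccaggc
Sec23b, chr2:144555979-144556278, plus strand: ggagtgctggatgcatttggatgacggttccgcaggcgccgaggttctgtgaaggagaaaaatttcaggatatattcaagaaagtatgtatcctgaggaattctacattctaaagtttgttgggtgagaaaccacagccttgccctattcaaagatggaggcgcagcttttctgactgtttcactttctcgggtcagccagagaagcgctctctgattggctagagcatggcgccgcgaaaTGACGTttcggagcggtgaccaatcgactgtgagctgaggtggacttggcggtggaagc
Sec24c, chr14:20674071-20674370, plus strand: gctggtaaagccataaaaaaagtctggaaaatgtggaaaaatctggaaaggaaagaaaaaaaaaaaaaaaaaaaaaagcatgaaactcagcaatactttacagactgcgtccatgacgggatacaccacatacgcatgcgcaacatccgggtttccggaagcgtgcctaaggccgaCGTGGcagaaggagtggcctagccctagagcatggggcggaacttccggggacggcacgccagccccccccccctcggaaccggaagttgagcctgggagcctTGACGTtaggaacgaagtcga
Sec24d, chr3:123267246-123267545, plus strand: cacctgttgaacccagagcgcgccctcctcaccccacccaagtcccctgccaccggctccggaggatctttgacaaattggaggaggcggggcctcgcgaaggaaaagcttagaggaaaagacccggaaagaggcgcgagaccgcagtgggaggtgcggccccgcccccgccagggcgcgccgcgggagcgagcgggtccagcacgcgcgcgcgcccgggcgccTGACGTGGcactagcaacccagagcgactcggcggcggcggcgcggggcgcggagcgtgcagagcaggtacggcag

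The letters TGACGTGG occurred in 2 of the 10 genes, Sec24d at base -26 and Sec23a at base 7 from the start site, and in 0.676% of the 32851 promoters of all genes. Both strands were searched, and each TGACGTGG also counts as a TGACGT and, on the other strand, as a CCACG. The core TGACGT, alone or within the longer form, occurred in 6 members (Sec23a, Sec23b, Sec24a, Sec24c, Sec24d and Sar1a) and in 7.51% of all promoters. In Sec23b it stood at base -9, in Sec24c at base 30. CCACG occurred in 7 members and in 32.8% of all promoters. The full ER stress response element, which sets a CCAAT box 9 bases ahead of the ATF6 part, occurred in 0 members and in 0.119% of all promoters. The second form of that element, in which ATTGG stands 1 base ahead of the ATF6 part, occurred in 0 members and in 0.0365% of promoters. TGATGNAAN, the amino acid response element bound by ATF4, occurred in 0 members and in 3.95% of promoters. The motif TGATGCAAT, 1 form of it, occurred in 0 members and in 0.192%, and CCAAT in 3 members and 37.4%. Sec23a and Sec24d, which both held TGACGTGG, had log2 fold changes between the genotypes of 0.01 and 0.29.

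Atf6 itself was measured first, as a check of the labels. It stood at 9.52 ± 1.11 FPKM in the Atf6+/+ libraries (SD, n = 5) and at 4.27 ± 0.285 FPKM in the Atf6-/- libraries (SD, n = 6). The groups did not overlap, and the log2 fold change was -1.13 (SE 0.0837, limma adjusted p = 5.17e-05). The libraries summed to between 462005 and 537926 FPKM. No read counts were used here, so the depth behind each value is unknown beyond the read number of each library that the study states as its aim. Most markers of bone marrow had lower fitted levels in Atf6-/-, and the summed ranges of the 3 lists overlapped between the genotypes. The study's rule asks for an unadjusted p no higher than 0.05 and a log2 fold change beyond 0.05 in either direction. It was applied here to limma p-values, where the study used DESeq2. Of all genes tested, 4.48% passed it as higher and 5.37% as lower. Of 11 erythroid markers 8 were lower by this rule, with a median log2 fold change of -1.38. Their summed level spanned 4841 to 46410 FPKM in the controls and 2875 to 9392 FPKM without ATF6. Of 8 neutrophil markers 4 were lower (median -1.52, summed level 256 to 3176 FPKM against 92.5 to 1199 FPKM). Of 7 B cell markers 3 were lower (median -0.82, 31.5 to 53.8 FPKM against 30.3 to 38.4 FPKM). A bone marrow score, the mean log2 level of the 3 lists, spanned 3.34 to 5.36 in the controls and 1.89 to 3.72 in the Atf6-/- libraries. Replicates 3 and 4 of Atf6+/+ had the highest scores, 5.36 and 4.57, and values without these 2 libraries are given below beside results that moved without them.

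Of the 9 bone markers 0 passed the rule in either direction (median -0.36, 357 to 2098 FPKM against 282 to 918 FPKM). Markers of the labelled tissue were present. Those of hair cells summed to 40.1 to 129 FPKM in Atf6+/+ and 70.6 to 152 FPKM in Atf6-/-, with 2 of 8 higher (Ocm and Slc26a5) and a median of 0.24. Those of the stria vascularis summed to 43.2 to 105 and 74.2 to 126.5 FPKM, with 1 of 5 higher (Kcnj10, median 0.30). Those of the fibrocytes of the lateral wall summed to 3066 to 4618 and 3994 to 5775 FPKM, with 1 of 5 higher (Coch, median 0.32). Those of neurons summed to 3025 to 3744 and 2943 to 3653 FPKM, with 0 of 5 called (median -0.06). No marker of these lists had a mean below 0.1 FPKM, and no marker reached an adjusted p under 0.05. In such bulk samples, fewer cells of a type and less RNA per cell cannot be told apart. Apart from the values with the marrow score and without the marrow-rich libraries, the part of cell composition in the results below was not tested.

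Levels were compared between members per length, in FPKM. Sec31a was the most abundant, at a mean of 81.5 FPKM over the 11 libraries, above 93.7% of the genes tested. Sar1a (37.4 FPKM), Sec13 (35.1), Sec24c (32.9), Sar1b (29.7), Sec23b (29.0) and Sec23a (24.9) followed in a narrow band. Neighbours within this band overlapped in their ranges over the libraries, with the higher mean above the next in 7 to 9 libraries, save that Sec23b was above Sec23a in all 11. Sec24b (18.8 FPKM), Sec24d (10.7) and Sec24a (3.48) formed the lower end without overlap. Sec24a, above 30.5% of the genes tested, was the scarcest subunit.

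Sec24d was 22.3% higher in Atf6-/- cochleae, Sec23b 11.4% and Sec24c 11.1%, and these 3 genes passed the study's rule. Of all genes tested, 4.48% passed that rule as higher, 5.37% as lower and 9.85% in either direction. No member passed it as lower. No member had an adjusted p under 0.05, and the smallest was 0.369. Among all genes 11 had one, which is 0.068%. The log2 fold changes were above 0 for 7 members and below 0 for 3, with a range from -0.095 to 0.291 and a median of 0.10. The median over all genes tested was -0.01, and 45.3% of them lay above 0. For 1 member, Sec23b, all values of one genotype lay above all values of the other, as for 0.643% of all genes in the same direction and 0.606% in the opposite direction. With the marrow score in the fit, Sec23b and Sec24c were called higher, beside 2.07% of all genes called higher and 3.28% lower. Without the 2 marrow-rich libraries, Sec23b, Sec24c and Sec31a were called higher, beside 2.68% of all genes higher and 3.56% lower, and the median of the members was 0.06. After rescaling each library to a common total (TPM), 5 members were called higher (Sec24b and Sec31a in addition), beside 8.59% of all genes called higher and 2.72% lower, and Sec13 (0.01) and Sar1a (0.03) then lay above 0. The direction of Sec23a also turned, to -0.01 with the marrow score.

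**Figure D1:**
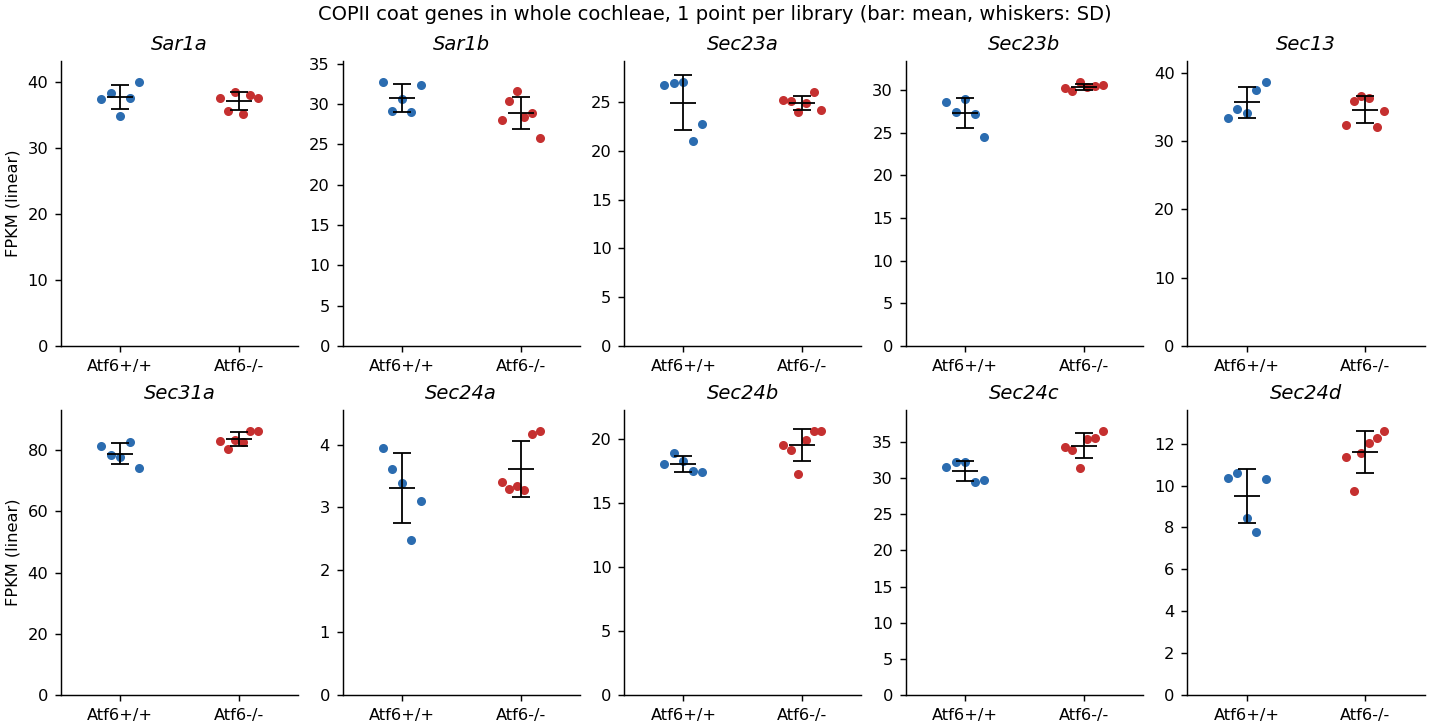
FPKM of each COPII coat gene on a linear axis from 0, with 1 point per cochlea (5 Atf6+/+, 6 Atf6-/-), a bar at the mean and whiskers of 1 SD. The Atf6-/- points of Sec23b (29.9 to 30.95 FPKM) all lie above the Atf6+/+ points (24.6 to 28.9 FPKM), while those of Sar1a and Sec23a lie within the range of the controls.

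The GTPases of the SAR1 family start coat assembly. Sar1a measured 37.5, 38.4, 34.9, 37.7 and 40.0 FPKM in the Atf6+/+ libraries, and 35.2, 37.6 and 38.5 FPKM as the lowest, median and highest of the 6 Atf6-/- libraries. The groups overlapped throughout, at means of 37.7 ± 1.84 and 37.1 ± 1.35 FPKM (SD, n = 5 and 6). Its log2 fold change was -0.02 (SE 0.0437, 95% interval -0.12 to 0.07, limma adjusted p = 0.881). It was -0.06 without the 2 marrow-rich libraries, -0.09 with the marrow score, and between -0.050 (without replicate 3 of Atf6+/+) and -0.001 (without replicate 5 of Atf6+/+) when single libraries were left out. Sar1b, the form whose loss blocks chylomicron export, measured 32.7, 29.1, 30.6, 29.0 and 32.4 FPKM in Atf6+/+ against 25.8, 28.6 and 31.55 FPKM (lowest, median, highest) in Atf6-/-. Its log2 fold change was -0.095 (SE 0.0567, 95% interval -0.22 to 0.03, limma adjusted p = 0.573), and -0.04 after rescaling each library to a common total (TPM). For Sar1b, 1 of 6 Atf6-/- libraries exceeded the Atf6+/+ mean. The Sar1b means were 30.8 ± 1.74 and 28.8 ± 1.99 FPKM (SD, n = 5 and 6), and neither GTPase passed the rule.

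SEC23 forms the inner coat with SEC24 and exists in the forms SEC23A and SEC23B, which can replace each other in large part. Sec23a measured 26.8, 27.0, 27.1, 21.02 and 22.8 FPKM in Atf6+/+, and 24.03, 25.0 and 26.1 FPKM as the lowest, median and highest in Atf6-/-. The Atf6-/- values lay inside the range of the controls, and the means were equal at 24.9 ± 2.83 and 24.9 ± 0.730 FPKM (SD, n = 5 and 6). The log2 fold change was 0.01 (SE 0.0681, 95% interval -0.14 to 0.15, limma adjusted p = 0.984).

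Sec23b measured 28.7, 27.5, 28.9, 27.2 and 24.6 FPKM in Atf6+/+, and 29.9, 30.4 and 30.95 FPKM as the lowest, median and highest in Atf6-/-. All 6 Atf6-/- values were above the highest control, and they spread far less (means 27.4 ± 1.74 and 30.4 ± 0.353 FPKM). Its log2 fold change was 0.16 (SE 0.0451, 95% interval 0.06 to 0.25, limma adjusted p = 0.369). The exact permutation test over the libraries gave a two-sided p of 0.00216, the smallest that 5 against 6 libraries allow. The fold change was 0.18 both with the marrow score in the fit and without the 2 marrow-rich libraries, passing the rule in each, and lay between 0.12 and 0.18 when single libraries were left out.

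The SEC24 subunits carry the binding sites for cargo. Sec24a and Sec24b are close relatives, as are Sec24c and Sec24d. Sec24a measured 3.96, 3.62, 3.39, 2.48 and 3.10 FPKM in Atf6+/+, and 3.28, 3.37 and 4.22 FPKM as the lowest, median and highest in Atf6-/-. The groups overlapped, and the log2 fold change of 0.13 had the widest interval of all members (SE 0.123, 95% interval -0.13 to 0.40, limma adjusted p = 0.719). Without replicate 4 of Atf6+/+, the library with the lowest value, it was 0.04, and without both marrow-rich libraries 0.02.

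Sec24b measured 18.1, 18.9, 18.3, 17.5 and 17.4 FPKM in Atf6+/+ against 17.3, 19.7 and 20.6 FPKM (lowest, median, highest) in Atf6-/-. Of the Atf6-/- libraries 5 of 6 exceeded the highest control, and the sixth was below the lowest. Its log2 fold change was 0.11 (SE 0.0517, 95% interval -0.00 to 0.22, limma adjusted p = 0.505). Sec24b just missed the rule, with an unadjusted limma p of 0.0510 beside an exact permutation p of 0.0433 (two-sided). Without that sixth library, replicate 3 of Atf6-/-, it passed the rule at a log2 fold change of 0.15. It also passed without replicate 2 of Atf6+/+, missed the rule in the other 9 fits with 1 library left out, and over all 11 of these fits the log2 fold change was between 0.10 and 0.15.

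Sec24c, the most abundant form, measured 31.5, 32.2, 32.3, 29.5 and 29.7 FPKM in Atf6+/+. The Atf6-/- libraries had 31.4, 34.8 and 36.5 FPKM as the lowest, median and highest. Again 5 of 6 exceeded every control, and the exception was replicate 3, as for Sec24b. The means were 31.0 ± 1.38 and 34.5 ± 1.78 FPKM (SD, n = 5 and 6), and the log2 fold change was 0.15 (SE 0.0476, 95% interval 0.05 to 0.26, limma adjusted p = 0.397). The exact permutation test gave p = 0.0108 (two-sided). Of the 4362 runs of 100 bases in its longest transcript, 42 were shared with an antisense transcript, 6230400D17Rik. The library kit keeps the strand, but whether the counting used it was not given in the sources used here. None of the other 9 members shared such a run with another gene, and no 2 paralogues shared one.

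Sec24d, the form needed for the export of procollagen in skeletal tissue, measured 10.4, 10.6, 8.45, 7.79 and 10.3 FPKM in Atf6+/+. The Atf6-/- libraries had 9.76, 11.8 and 12.6 FPKM as the lowest, median and highest, and 5 of 6 exceeded every control. The means were 9.50 ± 1.29 and 11.6 ± 1.01 FPKM (SD, n = 5 and 6). A log2 fold change of 0.29 made this the largest difference among the members (SE 0.0940, 95% interval 0.09 to 0.50, limma adjusted p = 0.400), and the exact permutation test gave p = 0.0130 (two-sided). The lowest controls were replicates 3 and 4, the libraries with the highest marrow scores. Without both, the log2 fold change was 0.15, and with the marrow score in the fit it was 0.19, and Sec24d missed the rule in either case.

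The outer cage consists of SEC13 and SEC31, and SEC13 also serves in the nuclear pore and in GATOR2, a regulator of mTORC1. Sec13 measured 33.4, 34.6, 34.2, 37.5 and 38.6 FPKM in Atf6+/+, and 32, 35.2 and 36.6 FPKM as the lowest, median and highest in Atf6-/-. The groups overlapped, and the log2 fold change was -0.04 (SE 0.0546, 95% interval -0.16 to 0.08, limma adjusted p = 0.805). It was -0.008 with the marrow score in the fit, and between -0.066 (without replicate 1 of Atf6+/+) and -0.014 (without replicate 5 of Atf6+/+) when single libraries were left out. Sec31a measured 81.4, 78.4, 77.9, 82.8 and 74.1 FPKM in Atf6+/+, and 80.5, 83.3 and 86.2 FPKM as the lowest, median and highest in Atf6-/-. Of the Atf6-/- libraries 4 of 6 exceeded every control, and all 6 exceeded the mean of the controls. A log2 fold change of 0.09 was fitted (SE 0.0395, 95% interval -0.00 to 0.17, limma adjusted p = 0.505), with an unadjusted limma p of 0.0510 beside an exact permutation p of 0.0238 (two-sided). Sec31a and Sec24b thus both lay just outside the rule with the limma p-values used here. By DESeq2, the study lists Sec31a, like Sec23b and Sec24d, among its significantly altered genes of the unfolded protein response. Here Sec31a and Sec24b both passed the rule after rescaling to TPM, at log2 fold changes of 0.14 and 0.17. They also passed it under median-of-ratios scaling, at 0.10 and 0.12, and with no filter on low values. Both missed it with the marrow score, at 0.095 and 0.13, and with the replicate block, at 0.08 and 0.10. Sec31a also passed with a pseudocount of 1, without the 2 marrow-rich libraries (0.10) and in 3 of the 11 fits with 1 library left out (replicates 1 and 4 of Atf6+/+, replicate 2 of Atf6-/-).

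**Figure D2:**
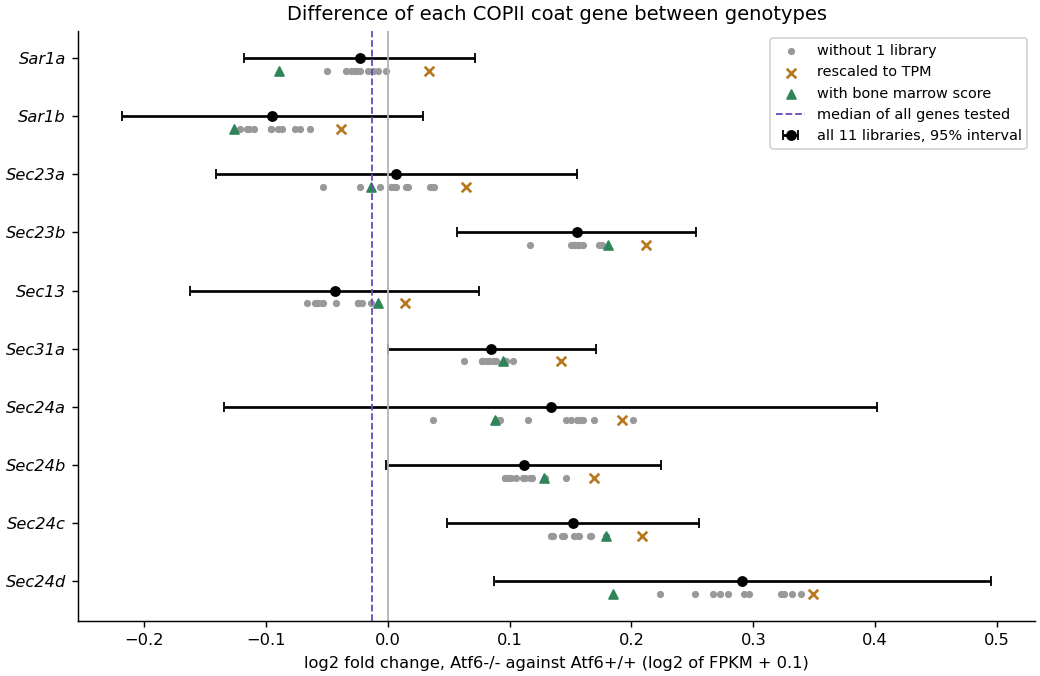
Log2 fold change of each COPII coat gene, Atf6-/- against Atf6+/+, on log2(FPKM + 0.1), with the 95% interval of the limma fit as whiskers. Smaller marks below each give the value without each library in turn, after rescaling to TPM and with the score for bone marrow added to the model, and the dashed line is the median of all genes tested (-0.01). The intervals of Sec23b, Sec24c and Sec24d lie above 0, and the marrow score moved Sec24d most among these, from 0.29 to 0.19.

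Paralogues were contrasted by their log2 ratio within each library, which does not depend on the scaling of the library except through the pseudocount of 0.1. There were 8 such pairs, and p-values were adjusted over them. The ratio Sec23b/Sec23a was 0.096, 0.027, 0.097, 0.368 and 0.106 on the log2 scale in the Atf6+/+ libraries, and ran from 0.229 to 0.364 in Atf6-/-. All Atf6-/- libraries were above the control mean, but replicate 4 of Atf6+/+, at 0.368, was above every one of them. The difference was 0.15 (SE 0.0627, exact permutation p = 0.0325, adjusted p = 0.130). On a linear scale Sec23b stood at 1.10 times Sec23a in Atf6+/+ and at 1.22 times in Atf6-/-. Without that library the difference was 0.21 (exact permutation p = 0.00476). Leaving out any 1 of the other Atf6+/+ libraries gave an unadjusted exact permutation p between 0.0619 and 0.0714. Without both marrow-rich libraries the difference was 0.21 (unadjusted exact permutation p = 0.0119). The adjustment over 8 pairs was made with all 11 libraries only.

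The ratio Sec24c/Sec24b varied little between cochleae, with SDs of 0.0267 and 0.0235 in the 2 genotypes. It was 0.78 in Atf6+/+ and 0.82 in Atf6-/-, a difference of 0.04 (SE 0.0153, exact permutation p = 0.0303, adjusted p = 0.130). With 1 library left out, its unadjusted exact permutation p ran from 0.0143 to 0.0857 and was above 0.05 in 7 of 11 fits. On a linear scale Sec24c stood at 1.68 to 1.81 times Sec24b over the 11 libraries, highest in replicate 3 of Atf6-/-, where both genes had their lowest level of that genotype. The 3 ratios of Sec24d to its relatives were higher in Atf6-/-, by 0.16 (SE 0.0932) against Sec24a, 0.18 (SE 0.0989) against Sec24b and 0.14 (SE 0.0984) against Sec24c. Their adjusted exact permutation p-values lay between 0.256 and 0.291. Without the 2 marrow-rich libraries these differences were 0.13, 0.04 and 0.00 in the same order (unadjusted exact permutation p = 0.214, 0.560 and 0.988). Sec24b/Sec24a and Sec24c/Sec24a differed by -0.02 (SE 0.112) and 0.02 (SE 0.107), each with an adjusted exact permutation p of 0.864. They were 0.08 and 0.12 without the 2 marrow-rich libraries (unadjusted exact permutation p = 0.405 and 0.238). Sar1b/Sar1a differed by -0.07 (SE 0.0629, adjusted exact permutation p = 0.372), and by -0.04 without replicate 6 of Atf6-/-. With all 11 libraries no pair passed an adjusted p of 0.05.

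**Figure D3:**
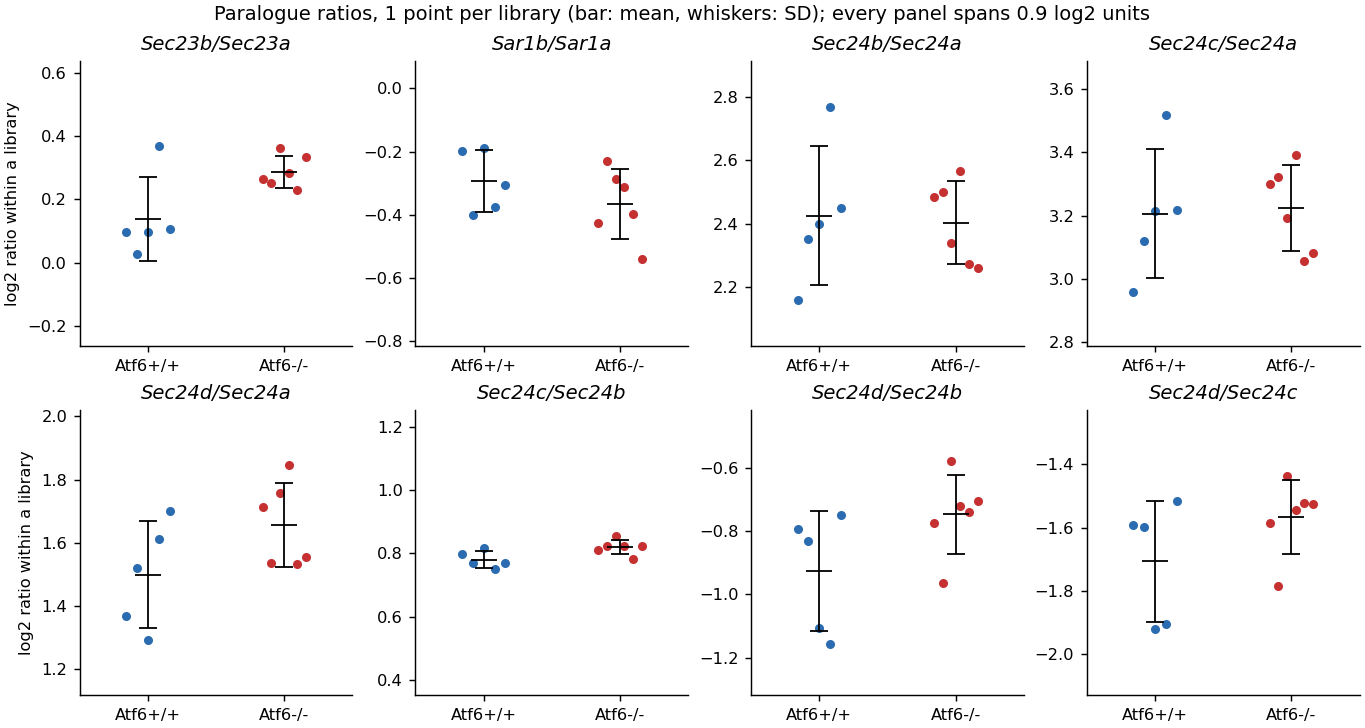
Log2 ratio of each of the 8 pairs of paralogues within a library, 1 point per cochlea, with the mean and 1 SD. Every panel spans the same number of log2 units, so the narrow spread of Sec24c/Sec24b and the single high Atf6+/+ library of Sec23b/Sec23a (0.368) can be read directly.

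As shares of a family's summed FPKM, Sec23b made up 52.4 ± 2.28% of SEC23 message in Atf6+/+ and 55.0 ± 0.887% in Atf6-/- (SD, n = 5 and 6). Among the SEC24 forms, Sec24c made up 50.2 ± 1.30% and 49.8 ± 0.839%, Sec24b 29.2 ± 0.869% and 28.2 ± 0.583%, Sec24d 15.3 ± 1.64% and 16.8 ± 1.11%, and Sec24a 5.33 ± 0.679% and 5.22 ± 0.445%. Sar1a made up 55.1 ± 1.68% and 56.3 ± 1.90% of SAR1 message. The order of the paralogues was therefore the same in both genotypes. The summed SEC24 level was 61.9 ± 3.16 FPKM in Atf6+/+ and 69.2 ± 3.93 FPKM in Atf6-/-, the summed SEC23 level 52.3 ± 4.17 and 55.4 ± 0.660 FPKM, and the summed SAR1 level 68.5 ± 2.78 and 65.9 ± 2.47 FPKM. Within a library there were 1.19 ± 0.0605 units of SEC24 message per unit of SEC23 message in Atf6+/+ and 1.25 ± 0.0674 in Atf6-/-. Per unit of Sec13 there were 2.22 ± 0.191 units of Sec31a in Atf6+/+ and 2.43 ± 0.187 in Atf6-/-. These sums, shares and ratios of sums were not tested, and their ranges overlapped between the genotypes.

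**Figure D4:**
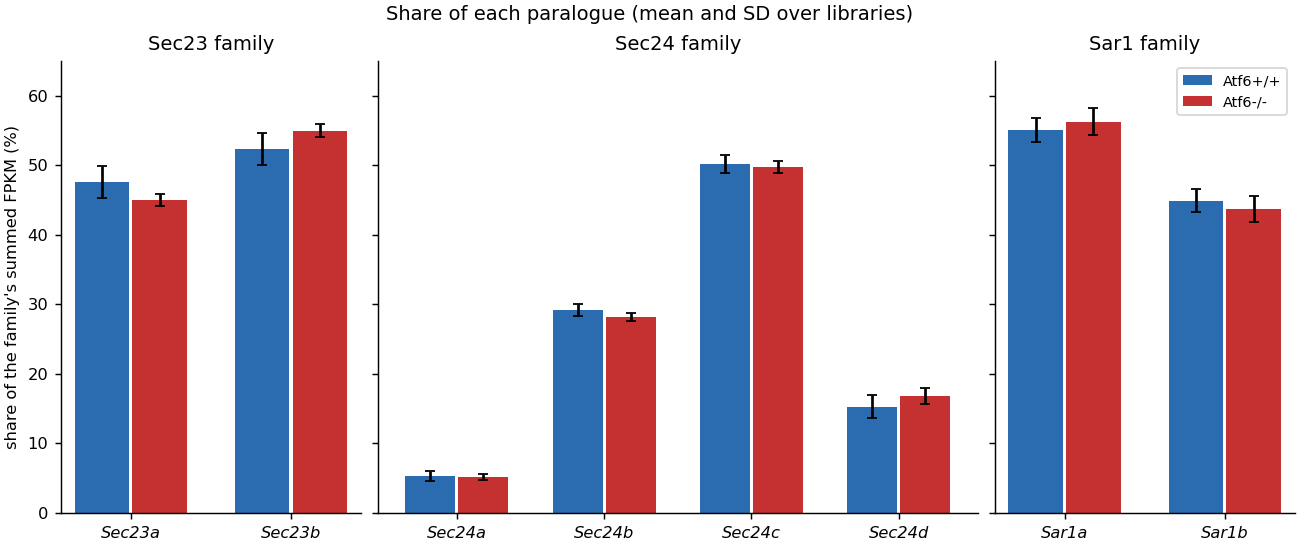
Share of each paralogue in the summed FPKM of its family, in percent, with bars at the mean over 5 Atf6+/+ and 6 Atf6-/- libraries and whiskers of 1 SD. Sec24c supplied about the same share in both genotypes (50.2% and 49.8%), and Sec23b went from 52.4% to 55.0%.

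Genes that act with the coat were read from 5 lists. Of 14 genes of COPII assembly and regulation, 2 passed the rule as higher and 0 as lower, with a median log2 fold change of 0.01. Preb, the exchange factor of SAR1, measured 29.5 ± 1.23 FPKM in Atf6+/+ and 31.9 ± 0.804 FPKM in Atf6-/-, without overlap (log2 fold change 0.11, SE 0.0393, limma adjusted p = 0.415). Sec23ip, a phospholipase relative that binds SEC23, measured 11.6 ± 0.545 and 12.6 ± 0.538 FPKM, also without overlap (log2 fold change 0.13, SE 0.0495, limma adjusted p = 0.462). Sec16a, the scaffold of ER exit sites, was at 12.5 ± 0.966 and 13.4 ± 1.38 FPKM with overlap (log2 fold change 0.10, limma adjusted p = 0.65). Mia3 and Mia2, which encode the TANGO1 proteins that adapt the coat to bulky cargo, had log2 fold changes of 0.03 (SE 0.0487) and 0.05 (SE 0.0342). Sec31b, the paralogue of Sec31a, was scarce, at 0.816 ± 0.167 and 0.810 ± 0.0754 FPKM (log2 fold change 0.01, SE 0.146).

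Of 23 cargo receptors tested, 4 passed the rule as higher and 1, Bcap31, as lower (median log2 fold change 0.02). Bcap31, which was named because it is the single lower call, had a log2 fold change of -0.13, and it missed the rule with the marrow score (-0.145), after rescaling to TPM (-0.07) and without the 2 marrow-rich libraries (-0.13). A further receptor, Lman1l, fell below the filter on low values. Lman2, a lectin that carries glycoproteins, measured 36.7 ± 1.34 FPKM in Atf6+/+ and 40.7 ± 1.48 FPKM in Atf6-/-, without overlap (log2 fold change 0.15, SE 0.0402, limma adjusted p = 0.350). Tmed10, of the p24 family, measured 72.0 ± 2.25 and 79.3 ± 2.47 FPKM, without overlap (log2 fold change 0.14, SE 0.0377, limma adjusted p = 0.350). Lman2l, a relative of Lman2, measured 20.8 ± 1.59 and 23.2 ± 1.02 FPKM (log2 fold change 0.16, SE 0.0565, limma adjusted p = 0.428). Lman1, the receptor for blood clotting factors, measured 19.1 ± 2.48 and 21.8 ± 1.72 FPKM (log2 fold change 0.20, SE 0.0866, limma adjusted p = 0.496), and its log2 fold change was 0.04 with the marrow score in the fit. Its call was lost in 6 of 11 fits with 1 library left out (replicates 3 and 4 of Atf6+/+, replicates 1, 3, 5 and 6 of Atf6-/-), and the log2 fold change was 0.12 without replicate 4 of Atf6+/+. Mcfd2, the partner of Lman1 in that receptor, was at 20.9 ± 0.727 and 21.2 ± 1.38 FPKM (log2 fold change 0.02, SE 0.0511).

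Of 32 genes that tether and fuse COPII vesicles, 1 passed the rule as higher and 2 as lower (median -0.00). Gorasp2, a stacking protein of the Golgi, measured 60.1 ± 3.15 and 66.05 ± 2.86 FPKM (log2 fold change 0.14, SE 0.0461, limma adjusted p = 0.415). Trappc2 and Trappc6b, both subunits of the TRAPP tether, were lower, with 30.7 ± 1.47 against 27.9 ± 0.918 FPKM for Trappc2 (log2 fold change -0.14, SE 0.0428, limma adjusted p = 0.391) and 42.5 ± 1.47 against 38.2 ± 2.83 FPKM for Trappc6b (log2 fold change -0.16, SE 0.0536, limma adjusted p = 0.415). Trappc2 did not overlap between the genotypes. After rescaling to TPM both missed the rule, at log2 fold changes of -0.08 for Trappc2 and -0.10 for Trappc6b. Of 12 genes of the other complexes of SEC13, 1 passed as higher (Nup98, log2 fold change 0.17, SE 0.0680, limma adjusted p = 0.467) and 0 as lower (median -0.00). Of 8 procollagens, the bulky cargo of the coat, 0 passed in either direction, with log2 fold changes that spanned -0.67 to 0.13 (median -0.10). With the marrow score in the fit, Lman2, Tmed10 and Trappc6b still passed the rule, while Preb, Sec23ip, Lman2l, Lman1, Gorasp2, Trappc2 and Nup98 no longer did. The log2 fold changes of most of the latter moved little, to 0.10 for Preb, 0.11 for Sec23ip, 0.12 for Lman2l, 0.125 for Gorasp2, -0.12 for Trappc2 and 0.17 for Nup98, against 0.04 for Lman1. Of the genes called with all libraries, Preb (0.12), Lman2 (0.13), Lman2l (0.11), Tmed10 (0.12) and Trappc2 (-0.14) also passed without the 2 marrow-rich libraries. Sec23ip (0.11), Lman1 (0.06), Gorasp2 (0.11), Trappc6b (-0.14) and Nup98 (0.14) then missed the rule. With 1 library left out, the calls of Sec23ip (replicates 4 and 5 of Atf6+/+, replicate 5 of Atf6-/-) and Nup98 (replicates 4 and 5 of Atf6+/+, replicate 6 of Atf6-/-) were each lost in 3 of 11 fits. No gene of the 5 lists had an adjusted p under 0.05. Across their 89 tested genes 8 passed the rule as higher and 3 as lower, to be read against the 4.48% and 5.37% of all genes. These counts were 14 and 0 after rescaling to TPM, beside 8.59% and 2.72% of all genes. They were 2 and 5 with the marrow score in the fit, beside 2.07% and 3.28%. Without the 2 marrow-rich libraries they were 4 and 2, beside 2.68% and 3.56%.

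**Figure D5:**
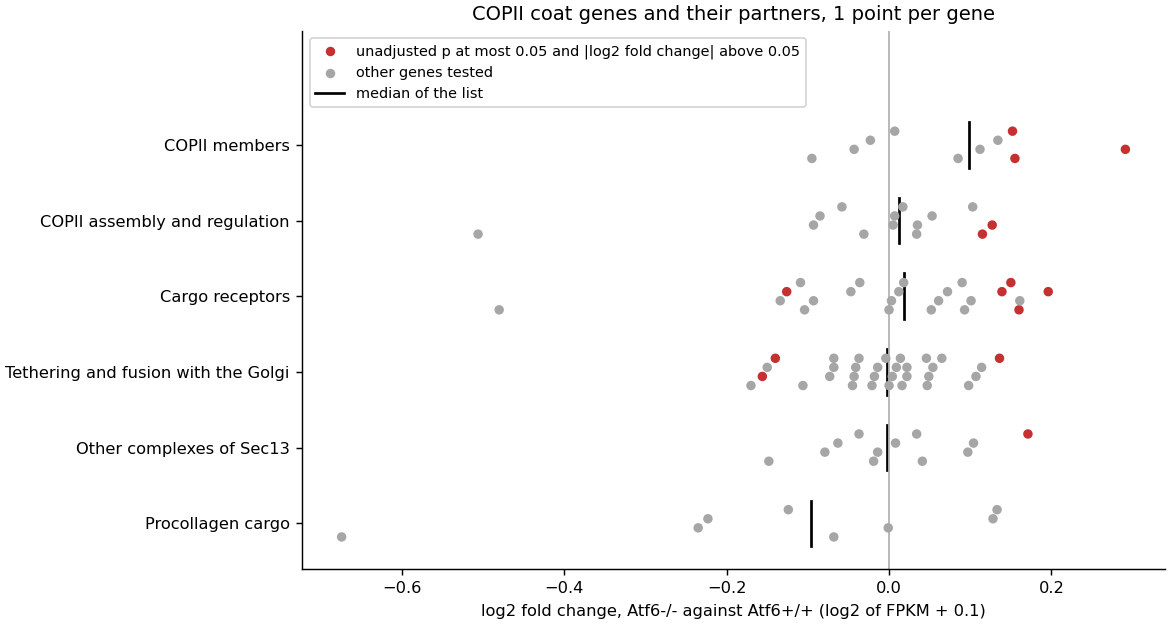
Log2 fold change of every tested gene of the COPII coat and of 5 lists of its partners, Atf6-/- against Atf6+/+, 1 point per gene, with the median of each list as a line and genes that passed the study's rule in red. The coat genes have the highest median (0.10), and the procollagens the lowest (-0.10).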

How the data were processed

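Bulk RNA was sequenced from 5 Atf6+/+ and 6 Atf6-/- whole mouse cochleae as stranded mRNA libraries (100-base paired reads). The authors aligned reads and estimated expression, and deposited FPKM values per gene to 2 decimals; the submitters' processing notes name HISAT2 2.0.4, RSEM 1.2.12, DESeq2 1.4.5 and GRCm39. The table columns of the authors' comparisons were not used. Tables were joined by gene identifier. Values were analysed as log2(FPKM + 0.1) for the 16169 genes whose mean reached 0.1 FPKM, with limma 3.58.1 (limma-trend, R 4.3.3), genotype only, and Benjamini-Hochberg adjustment over those genes. A fold change is thus on the log2(FPKM + 0.1) scale, which understates the change of low genes. The call rule was the study's: an unadjusted p no higher than 0.05 and a log2 fold change beyond 0.05 in either direction. Single values and paralogue ratios were tested by exact two-sided permutation over libraries. For ratios with the replicate block, the signs of the differences within same-numbered pairs were permuted instead. The fit was tested on simulated independent noise with added changes larger than the difference of any member. That test does not cover differences as small as those of the members. Replicates are separate cochleae; whether any came from the same mouse is not given in the sources used here. The members and lists were chosen with earlier results of these data known. Named partner genes were up to 3 per list with the smallest unadjusted p at or under 0.05, and Preb, Sec16a, Sec31b, Mia2, Mia3, Lman1 and Mcfd2 in any case. Tmed6 and Tmed11 were not analysed here. A further list of cell type markers is not reported here. Alternatives were other pseudocounts (1, 0.01), filters, TPM and median-of-ratios scaling, robust variance, a replicate block, a bone marrow covariate and each library left out, and, chosen after seeing the scores, both libraries of highest marrow score left out. Promoters and transcripts came from RefSeq and GENCODE.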

Additional observations from a re-analysis of the deposited data

Results flagged for a closer look

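Among 66 groups of values that were examined for a library far from the rest, 2 held one, where chance gives about 1 in 20. The log2 ratio Sec23b/Sec23a was 0.368 in replicate 4 of Atf6+/+, the highest of its group, and the nearest other library was at 0.106. Lman2l measured 18.04 FPKM in the same library, the lowest of its group, and the nearest other was at 21.13 FPKM. That library also had the second highest bone marrow score, 4.57, and the part of this in either value was not tested.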

How the results depend on the processing

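The replicate numbers of the labels did not pair the cochleae (correlations of the deviations of same-numbered libraries 0.095, -0.122, -0.210, 0.119 and -0.040). With the replicate block, 420 genes were called higher, 4 had an adjusted p under 0.05, Sec24c lost its call (0.14, unadjusted limma p = 0.0633), 5 partner genes were called higher, Sec23b/Sec23a differed by 0.139 (exact permutation p = 0.125), Sec24c/Sec24b by 0.040 (exact permutation p = 0.0625) and Sec24b/Sec24a by 0.007. After rescaling to TPM, 1389 genes were called higher and 439 lower (main: 724 and 868), 5 members and 14 partner genes higher, 0 partner genes lower, and Sec13 (0.014) and Sar1a (0.034) reversed. Under median-of-ratios scaling 5 members were called higher (5.36% of all genes), and with no filter on low values 5 members higher (4.03% of all genes) and 5 partner genes lower. With the bone marrow covariate, 334 genes were called higher and 530 lower, 6 had an adjusted p under 0.05, 2 partner genes were higher and 5 lower, and Sec23a was at -0.014. Without the 2 libraries of highest marrow score, an alternative chosen after seeing the data, 434 genes were called higher and 576 lower, 4 partner genes were higher, Sec23a was at -0.031 and Sec24b/Sec24a at 0.083. A pseudocount of 1 put Sec24b/Sec24a at 0.002. The cause of these shifts was not tested.

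With 1 library left out at a time, the members called higher numbered 3 to 4, called lower 0 and with an adjusted p under 0.05 0, and their median log2 fold change was 0.069 to 0.116. Partner genes called higher numbered 6 to 11 and lower 2 to 6. Among all genes, 524 to 872 were higher, 618 to 993 lower and 8 to 13 had an adjusted p under 0.05. The log2 fold change of Sec23a ran from -0.053 to 0.038. The log2 ratio differences ran from 0.121 to 0.206 for Sec23b/Sec23a, from -0.088 to 0.064 for Sec24b/Sec24a, from -0.043 to 0.096 for Sec24c/Sec24a, from 0.032 to 0.049 for Sec24c/Sec24b, from 0.122 to 0.224 for Sec24d/Sec24b, from 0.085 to 0.187 for Sec24d/Sec24c, from 0.106 to 0.208 for Sec24d/Sec24a and from -0.098 to -0.037 for Sar1b/Sar1a. Sec24d/Sec24b reached an exact permutation p of 0.0159 without replicate 2 of Atf6-/-. The calls of Sec23b, Sec24c and Sec24d held in all 11 of these fits. Read depth was not recovered from the FPKM values.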
